A study of Mus musculus with 4 samples.

Results

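Brown fat draws much of its fuel from circulating fat, and 10 genes of fatty acid uptake and binding are described here in brown adipose tissue of wild-type mice and of mice lacking Tsku, the gene of the secreted protein tsukushi. The genes were taken by name: Fabp3, Fabp4 and Fabp5, Lpl, Gpihbp1 and Angptl4, Cd36, Slc27a1 and Slc27a2, and Vldlr. All 10 were on the array, among 22180 genes tested, and together they had 16 probe sets. Where a gene has several probe sets its value is that of the brightest by mean, and the others are given beside it. Both groups were male C57BL/6 mice, 4 months old and fed chow, with 2 arrays of wild type and 2 of the Tsku knockout, 1 array for each sample. The comparison asks what loss of Tsku does to gene expression in this tissue. How the knockout allele was made, and whether Tsku was lost in every cell, is not given in the sources used here. Tsku had 0 probe sets among those with 1 gene symbol, and the others were not searched, so the genotypes rest on the labels. The labels call the samples biological replicates without saying that each came from its own mouse, so a p-value here reflects only how far these samples scatter, which may be technical scatter.

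Fatty acids reach brown adipocytes mostly as triglyceride in lipoproteins. Lipoprotein lipase (Lpl) is made by adipocytes, carried across the capillary wall and held there by the endothelial protein Gpihbp1, and it splits the triglyceride, while Angptl4 inactivates the enzyme. The freed fatty acids enter cells with the help of the scavenger receptor Cd36 and of transport proteins of the Slc27a family, which also act as acyl-CoA synthetases, and Vldlr binds whole lipoprotein particles beside the lipase. Inside the cell small binding proteins carry the fatty acids: Fabp4 is the main form of adipocytes, Fabp3 the form known from heart, muscle and cold-stimulated brown fat, and Fabp5 a form of skin, macrophages, endothelium and adipocytes.

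Each array gave log2 expression values for 41345 probe sets, with medians of 0.56 to 0.58. Background was taken on each array as the 95th percentile over the 1405 olfactory and vomeronasal receptor probe sets, and it lay between 0.63 and 0.81. All 10 genes were above it on all 4 arrays. Of all 22180 genes tested, 9927 were above it on all 4 arrays and 8745 on none. The tissue's defining markers were present: Ucp1, the uncoupling protein of brown fat, read 9.52 and 9.38 in wild type, against 9.99 and 10.001 in the knockout, and Cidea, a lipid droplet protein, read 9.37 to 9.52 on the 4 arrays. Pearson's r across genes, which are not independent replicates, was 0.983 between the wild-type arrays, 0.981 between the knockout arrays and 0.977 to 0.985 between arrays of different genotype, so the values within a genotype lay inside the range found between genotypes. A probe set's level depends on its own probes, so levels are compared between arrays and not between genes.

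In the knockout 4 of the 10 genes had higher means (Fabp3, Vldlr, Fabp4 and Lpl) and 6 had lower means (Fabp5, Slc27a2, Angptl4, Gpihbp1, Slc27a1 and Cd36), where 52.6% of all genes tested were higher. The median log2 difference of the 10 genes was -0.13, against 0.02 over all genes tested. None passed the threshold of a limma adjusted p under 0.05: the adjusted p-values of the 10 genes ran from 0.872 to 0.984, and the background was 0 of 22180 genes (0%). At an unadjusted limma p under 0.05 stood 3 of the 10, Fabp3 and Vldlr higher and Fabp5 lower, where the share over all genes was 5.56% (2.89% higher and 2.67% lower). The wild-type and knockout arrays did not overlap in 7 of the 10 genes, 4 with both knockout arrays above and 3 with both below, where the share over all genes was 35.2% (19.4% above and 15.8% below). Since the genes were chosen with earlier results of these data known, their counts are a description. An exact permutation test of 2 arrays against 2 cannot go below a two-sided p of 0.333.

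**Figure D1:**
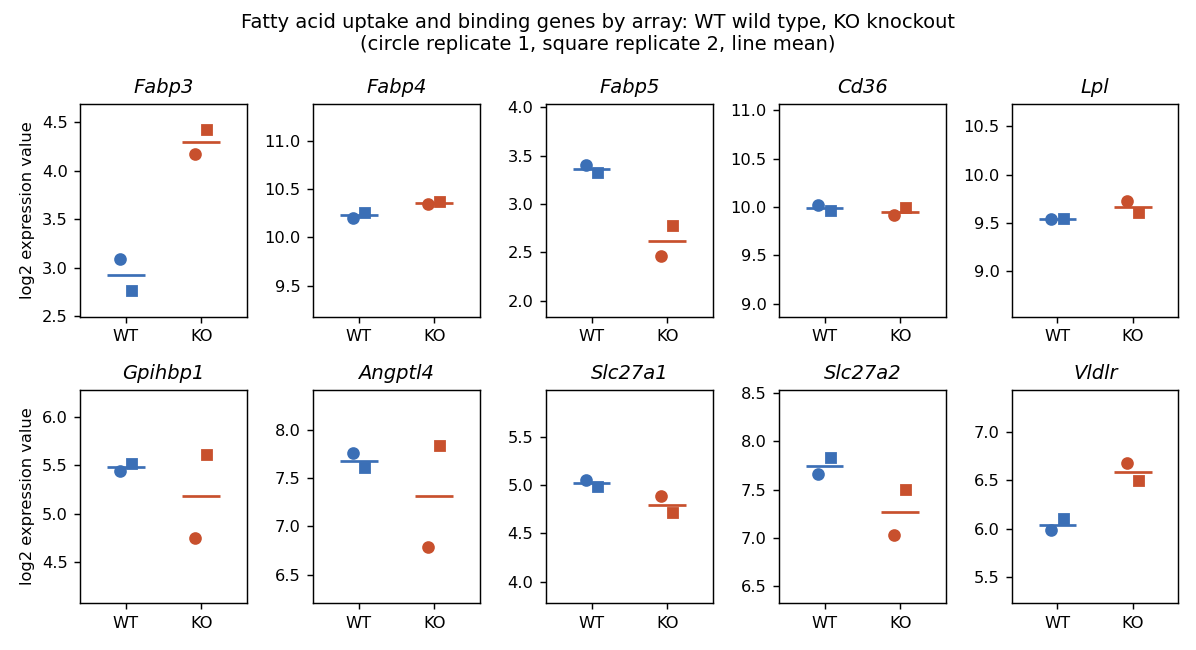
Log2 expression value (vertical axis, each panel spanning the same range) of the 10 genes on each array, wild type in blue and knockout in orange; circles are replicate 1, squares replicate 2 and lines the group means of 2 arrays. By the brightest probe set of each gene, Fabp3 and Vldlr lie higher and Fabp5 lower on both knockout arrays. Gpihbp1 and Angptl4 are low on knockout replicate 1 alone.

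Upstream sequence was at hand for 5 of the 10 genes, in 8 windows, as Slc27a1 has 3 listed starts and Vldlr 2. Fabp4, Fabp5, Lpl, Gpihbp1 and Angptl4 had no entry. Fatty acid uptake genes are textbook targets of the PPAR receptors, which bind as partners of the RXR receptors to 2 copies of AGGTCA with 1 base between them. The 250 bases before the start were searched on both strands for the single copy AGGTCA and for the pair AGGTCANAGGTCA, which contains it. Also searched were the letters TATAAA of the TATA box, the letters CCAAT bound by NF-Y and the letters GGGCGG bound by Sp1, common in promoters generally. Shown are the windows of Fabp3 and of the first start of Vldlr, which read higher in the knockout, and of Cd36 and Slc27a2, which hold AGGTCA. They run 5′ to 3′ in the direction of the gene and are from RefSeq (GRCm38.p6), and capitals mark a match to any of these motifs on either strand.
Fabp3, chr4:130308488-130308737, plus strand: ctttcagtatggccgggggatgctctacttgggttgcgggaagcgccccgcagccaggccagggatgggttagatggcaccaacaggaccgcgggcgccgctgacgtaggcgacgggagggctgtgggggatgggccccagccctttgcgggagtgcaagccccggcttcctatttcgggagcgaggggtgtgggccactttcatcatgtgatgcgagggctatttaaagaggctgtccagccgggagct
Vldlr, chr19:27216234-27216483, plus strand: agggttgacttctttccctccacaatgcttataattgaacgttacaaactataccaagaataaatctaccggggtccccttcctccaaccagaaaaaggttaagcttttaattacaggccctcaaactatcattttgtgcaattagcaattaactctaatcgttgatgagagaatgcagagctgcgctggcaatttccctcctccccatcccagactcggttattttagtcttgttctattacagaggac
Cd36, chr5:17835897-17836146, minus strand: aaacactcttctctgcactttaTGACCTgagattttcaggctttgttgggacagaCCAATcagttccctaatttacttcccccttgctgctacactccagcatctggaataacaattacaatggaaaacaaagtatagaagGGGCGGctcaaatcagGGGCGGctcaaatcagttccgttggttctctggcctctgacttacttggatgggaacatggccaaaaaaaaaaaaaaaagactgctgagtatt
Slc27a2, chr2:126552774-126553023, plus strand: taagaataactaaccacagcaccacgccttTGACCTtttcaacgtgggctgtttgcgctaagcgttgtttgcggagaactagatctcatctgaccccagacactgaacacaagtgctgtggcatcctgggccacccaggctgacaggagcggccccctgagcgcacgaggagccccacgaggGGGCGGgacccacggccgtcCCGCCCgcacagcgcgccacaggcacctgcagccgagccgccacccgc

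AGGTCA was found in the windows of Cd36 (positions -228 to -223 from the start) and Slc27a2 (-220 to -215), both on the opposite strand, and in 14% of all 32851 windows in the RefSeq table. The pair was found in none of the 8 windows at hand for 5 of the 10 genes, and in 0.0335% of all. The windows shown for Fabp3 and Vldlr held none of the letters searched. The window of the other Vldlr start held CCAAT, present in 33.8% of all windows, and GGGCGG, present in 32.7%. TATAAA was in none of the 8 windows at hand and in 12.4% of all. A match is a description of the letters, and the absence of one says nothing of the window's use by a receptor.

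Among the binding proteins, by their brightest probe sets, Fabp3 had the largest difference of the 10 genes, higher in the knockout. Fabp5 had one in the other direction by its brightest probe set, and Fabp4 differed little. The probe sets of Fabp3 disagreed with each other, as did those of Fabp5. Fabp3 read 3.09 and 2.76 in wild type, against 4.17 and 4.43 in the knockout. Both knockout arrays were above both wild-type arrays, and the distance between the genotypes was larger than that between the arrays of either. The means were 2.93 ± 0.23 (SD, n = 2) and 4.30 ± 0.18 (SD, n = 2), which is 2.59-fold. The log2 difference was 1.37 (SE 0.21, 95% interval 0.85 to 1.90), with a limma adjusted p of 0.872 and an unadjusted p of 0.000707. Without single arrays it was 1.21 to 1.54.

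The other probe set of Fabp3 did not follow it. It read 1.30 and 1.17 in wild type, against 0.91 and 1.002 in the knockout, above background on all 4 arrays. On knockout replicate 1 it lay close to the background of 0.81. How well so dim a probe set reports Fabp3 was not tested. Here both knockout arrays were below both wild-type arrays, with a log2 difference of -0.28 (95% interval -0.73 to 0.17). The distance between the 2 probe sets of Fabp3, taken within each array, was 1.79 and 1.59 in wild type, against 3.27 and 3.42 in the knockout. That distance was wider by 1.65 (SE 0.15, 95% interval 1.20 to 2.11) in the knockout. Among 1341 such pairs from the 1082 genes with more than 1 probe set, its unadjusted limma p was 0.00133 and its adjusted p 0.724. None of the pairs passed an adjusted p under 0.05 (0%), and 6.26% had an unadjusted p under 0.05. Without single arrays the widening was 1.55 to 1.76. With the mean of both probe sets the Fabp3 difference was 0.55, so its size rests on the brighter probe set. Where either probe set lies in the gene was not used here, and the RefSeq table lists a pseudogene, Fabp3-ps1, whose part in either signal was not tested.

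Fabp4 read 10.20 and 10.25 in wild type, against 10.34 and 10.36 in the knockout. The arrays did not overlap, but the difference was 0.13 (95% interval -0.31 to 0.56, limma adjusted p = 0.933), and Fabp4 has 1 probe set. In the RefSeq table Fabp4 and Fabp5 lie on the same chromosome with 2 protein-coding genes between them, Pmp2 and Fabp9, and Fabp12 follows Fabp4. All 3 of these neighbours encode binding proteins of the same family. Pmp2 and Fabp12 were above background on 0 of 4 arrays and Fabp9 on 1, so in this cluster signal was measured for Fabp4 and Fabp5.

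Fabp5 read 3.41 and 3.32 in wild type, against 2.47 and 2.77 in the knockout by its brightest probe set. Both knockout arrays were below both wild-type arrays, 1.67-fold by their means. The log2 difference was -0.74 (SE 0.20, 95% interval -1.23 to -0.25). Its unadjusted limma p was 0.0103 and its adjusted p 0.872. The brightest probe set, with a mean of 2.99 over the 4 arrays, was barely brighter than probe sets 2 and 3, with 2.94 and 2.78.

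Probe set 2 of Fabp5 did not follow: it read 3.07 and 2.71 in wild type, against 2.81 and 3.17 in the knockout, with overlapping arrays and a difference of 0.10 (95% interval -0.47 to 0.66). Probe set 3, at 3.17 and 3.03 against 2.71 and 2.19, differed by -0.65 (95% interval -1.23 to -0.06), close to probe set 1. Probe set 4 was at or below background on all 4 arrays. Within arrays probe set 1 minus probe set 2 was 0.34 and 0.60 in wild type, against -0.35 and -0.40 in the knockout, so their order turned. That change in distance was -0.84 (SE 0.15, 95% interval -1.31 to -0.37), with an unadjusted limma p of 0.0106 and an adjusted p of 0.724. With the mean of its 4 probe sets Fabp5 differed by -0.26, with an unadjusted limma p of 0.197. Of the 3 probe sets above background, 2 were therefore lower in the knockout and 1 was not. The RefSeq table lists a pseudogene, Fabp5l2, and its part in these signals was not tested.

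**Figure D2:**
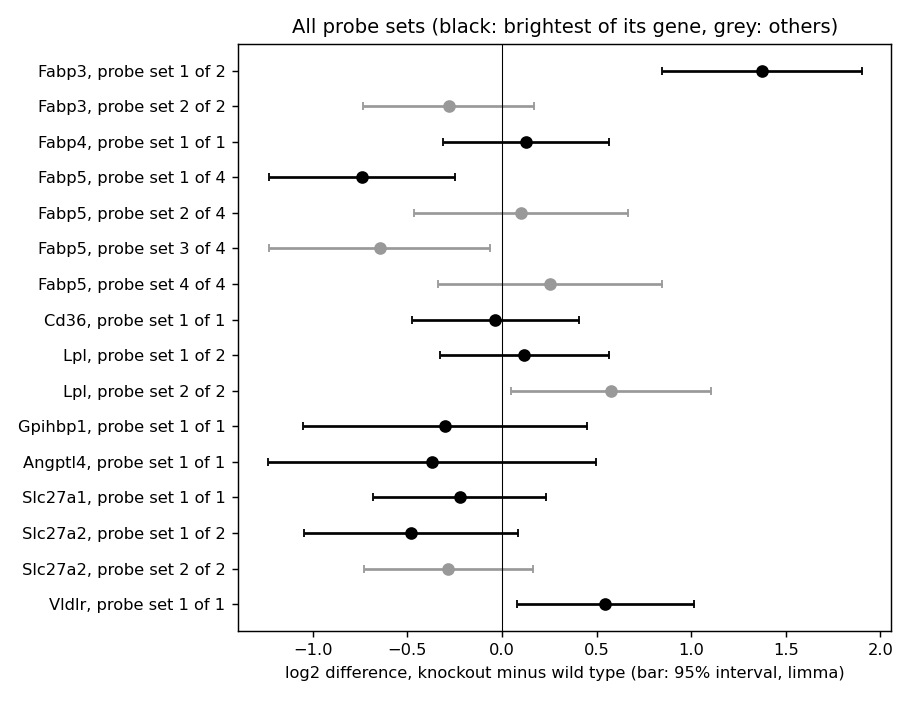
Log2 difference, knockout minus wild type (horizontal axis), of all 16 probe sets of the 10 genes, with 95% intervals from limma on 2 arrays per genotype; black is the brightest probe set of a gene and grey the others. The probe sets of Fabp3 lie on opposite sides of 0, at 1.37 and -0.28, and those of Fabp5 spread from -0.74 to 0.25.

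**Figure D3:**
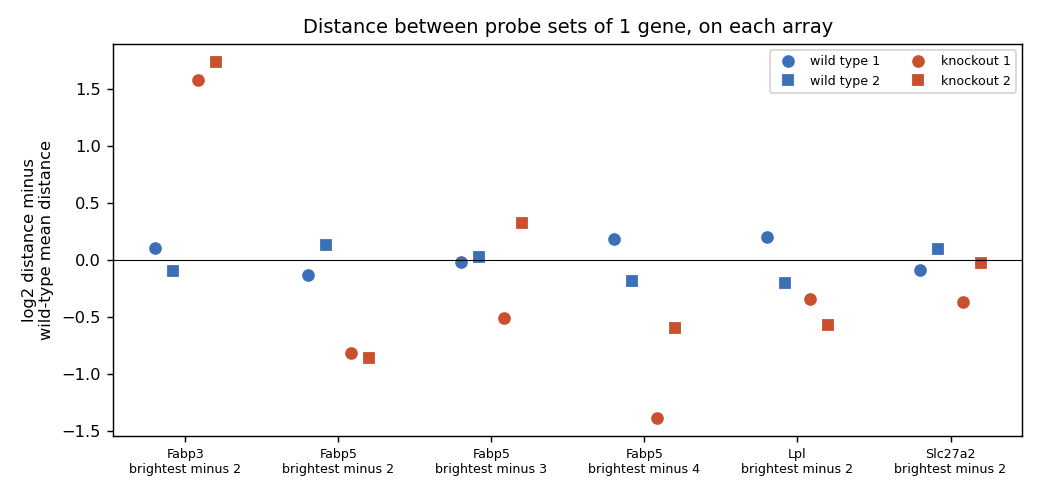
Distance between the brightest and another probe set of the same gene on each array, in log2 units relative to the wild-type mean distance (vertical axis), for the 4 genes with more than 1 probe set; wild type is blue and knockout orange, circles replicate 1 and squares replicate 2. The Fabp3 distance widened by 1.65 and the first Fabp5 distance changed by -0.84, with the genotypes apart in both.

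In the lipolysis step, Lpl differed little, and Gpihbp1 and Angptl4 were low on 1 of the 2 knockout arrays. Lpl, the lipase itself, read 9.55 and 9.54 in wild type, against 9.72 and 9.60 in the knockout. The arrays did not overlap, with a difference of 0.12 (95% interval -0.33 to 0.56, limma adjusted p = 0.939), about as large as the distance between the knockout arrays. Its second probe set read 3.87 and 4.27 in wild type, against 4.60 and 4.70 in the knockout, a difference of 0.58 (95% interval 0.05 to 1.11) with an unadjusted limma p of 0.0371, where 5.59% of all named probe sets had one under 0.05. The distance between the 2 probe sets of Lpl changed by -0.46 (95% interval -1.13 to 0.21), so a difference between them was not resolved.

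Gpihbp1, the anchor of the lipase on capillaries, read 5.44 and 5.51 in wild type, against 4.75 and 5.60 in the knockout. Knockout replicate 1 was the lowest array and knockout replicate 2 the highest, so the wild-type arrays lay between them. The difference of -0.30 (95% interval -1.05 to 0.45, limma adjusted p = 0.920) turned to 0.12 without knockout replicate 1 and was -0.73 without knockout replicate 2.

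Angptl4, the inhibitor, behaved alike on the arrays: it read 7.76 and 7.60 in wild type, against 6.79 and 7.83 in the knockout. Its 2 knockout arrays were 1.04 apart, the widest gap within a genotype among the 10 genes. The difference of -0.37 (95% interval -1.23 to 0.49, limma adjusted p = 0.917) turned to 0.15 without knockout replicate 1 and was -0.89 without knockout replicate 2. The distance between the knockout arrays exceeded that between the wild-type arrays in 8 of the 10 genes. The share over all genes was not counted, so this is not read as particular to these genes.

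Among Vldlr, Cd36 and the Slc27a transport proteins, Vldlr was higher and Slc27a1 and Slc27a2 lower on both knockout arrays, and Cd36 hardly differed. Vldlr, the receptor for triglyceride-rich lipoproteins, read 5.98 and 6.10 in wild type, against 6.68 and 6.50 in the knockout. The genotypes were further apart than the arrays of either, at 6.04 ± 0.09 (SD, n = 2) and 6.59 ± 0.13 (SD, n = 2), or 1.46-fold. The log2 difference was 0.55 (SE 0.19, 95% interval 0.08 to 1.01), with an unadjusted limma p of 0.0282 and an adjusted p of 0.872, and 0.45 to 0.64 without single arrays.

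Cd36, the scavenger receptor that takes up long-chain fatty acids, read 10.02 and 9.96 in wild type, against 9.92 and 9.99 in the knockout. The arrays overlapped, and the difference of -0.03 (95% interval -0.48 to 0.41, limma adjusted p = 0.984) leaves room for a change of up to the bounds of that interval in either direction.

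Slc27a1, a transport protein of fat and muscle, read 5.05 and 4.98 in wild type, against 4.88 and 4.71 in the knockout. Both knockout arrays were lower, by a difference of -0.22 (95% interval -0.68 to 0.23, limma adjusted p = 0.902). Slc27a2, a form known from liver and kidney that activates very long-chain fatty acids, read 7.66 and 7.83 in wild type, against 7.03 and 7.50 in the knockout. Both knockout arrays were lower here too, replicate 1 the more so, with a difference of -0.48 (SE 0.23, 95% interval -1.05 to 0.08) and an adjusted limma p of 0.872. It was -0.25 without knockout replicate 1 and -0.72 without knockout replicate 2. The second probe set of Slc27a2 was above background on 1 of 4 arrays and differed by -0.28.

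Other genes of the pathway were read from 5 lists, in which 0 genes passed the threshold. At an unadjusted limma p under 0.05 stood 5 of their 60 measured genes (8.33%), near the share of 5.56% over all genes. All 5 were higher in the knockout, where 2.89% of all genes were higher at that p: 1 of 11 measured binding proteins, 0 of 12 transporters, synthetases and caveolar proteins, 2 of 14 lipase partners, 0 of 9 lipoprotein receptors and 2 of 14 regulators. The medians of these lists were 0.01, 0.06, 0.02, 0.15 and 0.15, against 0.02 over all genes tested.

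Angptl8, a secreted protein that is induced by feeding and takes part in the control of lipase, read 3.78 and 4.29 in wild type, against 5.75 and 5.31 in the knockout. Both knockout arrays were more than 1 log2 unit above both wild-type arrays, with a difference of 1.49 (SE 0.26, 95% interval 0.85 to 2.14) or 2.82-fold. Its limma adjusted p was 0.872, and the difference was 1.24 to 1.75 without single arrays. Lmf1, the chaperone that folds newly made lipase, read 5.17 and 5.27 against 5.66 and 5.68, a difference of 0.45 (95% interval 0.01 to 0.89).

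Ppard, the PPAR receptor known to induce fatty acid use in many tissues, read 2.59 and 2.23 in wild type, against 3.92 and 3.46 in the knockout. The arrays did not overlap, with a difference of 1.27 (SE 0.25, 95% interval 0.67 to 1.88) or 2.42-fold and a limma adjusted p of 0.872. Rxrg, an RXR partner receptor, read 0.86 and 1.17 against 1.68 and 2.15, a difference of 0.90 (95% interval 0.31 to 1.49). Pparg, the main PPAR of adipocytes, differed by 0.09 (95% interval -0.39 to 0.57) and Ppara, which drives fatty acid oxidation, by 0.08 (95% interval -0.39 to 0.55).

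Of the other binding proteins, 3 of 11 were above background on all 4 arrays and 6 on none. Over all 22180 genes tested these counts were 9927 and 8745. Fabp7, the brain form, read 2.17 and 1.22 in wild type, against 2.59 and 2.74 in the knockout, a difference of 0.97 (95% interval 0.16 to 1.78). It was 0.49 without wild-type replicate 2, so that array carried much of it. The transport proteins Slc27a3, Slc27a5 and Slc27a6 were at or below background on all 4 arrays. The endothelial factors Meox2 and Tcf15, which together switch on uptake genes in capillaries, had overlapping arrays and differed by -0.21 (95% interval -0.74 to 0.33) and 0.02 (95% interval -0.60 to 0.64).

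**Figure D4:**
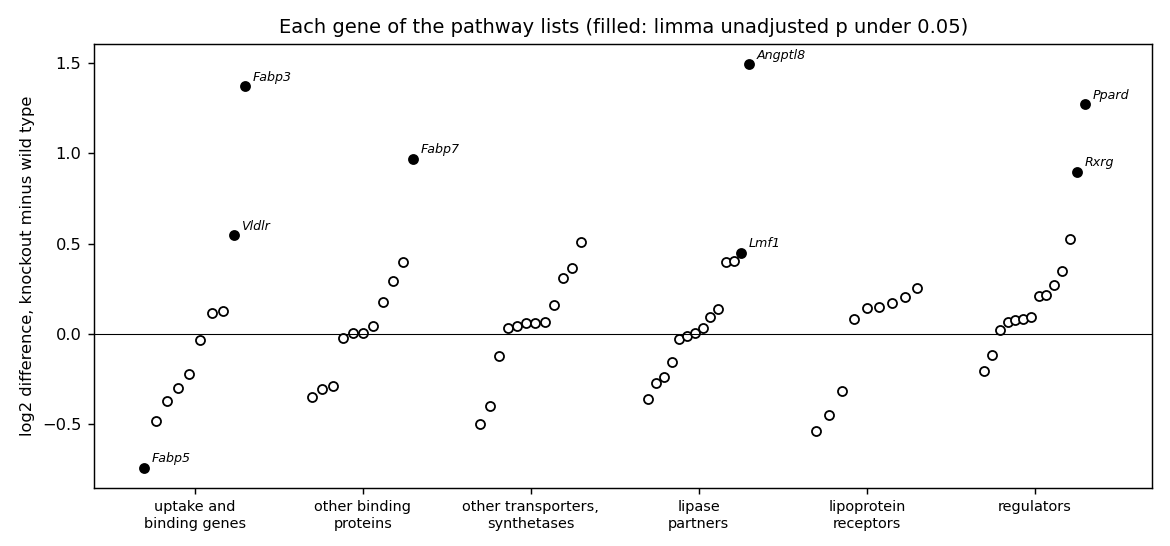
Log2 difference, knockout minus wild type (vertical axis), of every measured gene of the uptake and binding genes and of the 5 further lists, 1 point per gene, ordered by value within a list; filled points have an unadjusted limma p under 0.05 and are named. The filled points outside the first column are Fabp7, Angptl8, Lmf1, Ppard and Rxrg, all above 0, and 0 genes passed an adjusted p under 0.05.

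The uptake genes are used by several cell types of the tissue, and in bulk samples fewer cells of a type and less RNA per cell cannot be told apart. All 12 endothelial markers were above background on all 4 arrays, and 6 of the 12 were lower in the knockout. Their summed linear level was 667 and 567 in wild type, against 556 and 750.1 in the knockout. With each marker centred on its own mean, the median marker stood at -0.25 on knockout replicate 1 and 0.24 on knockout replicate 2, the lowest and the highest of the 4 arrays, as for Gpihbp1 and Angptl4. Of the 12 macrophage markers 11 were lower in the knockout, where 47.4% of all genes were lower, with a summed linear level of 266 and 275 in wild type, against 152 and 277 in the knockout. Their median was -0.58 on knockout replicate 1 and between 0.07 and 0.21 on the other arrays. The part of these cells in the values of Gpihbp1, Angptl4, Fabp5, Cd36 and Lpl was not tested.

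Skeletal muscle also uses Fabp3, Lpl and Cd36. All 14 of its markers were lower in the knockout, 11 of them with an unadjusted limma p under 0.05, where 47.4% of all genes were lower and 2.67% were lower at that p. Their summed linear level was 307 and 490 in wild type, against 200 and 68.0 in the knockout. Of 8 cardiac muscle markers 0 were above background on all 4 arrays and 5 on none. All 11 measured liver genes were higher in the knockout, where 52.6% of all genes were higher. Above background on all 4 arrays were 6 of the 11, where 9927 of the 22180 genes tested were. At an unadjusted limma p under 0.05 stood 3 of the 11, where 2.89% of all genes were higher at that p. The summed linear levels of the liver genes were 564 and 657 in wild type, against 891 and 709 in the knockout. Hp and Cyp2e1, which read 7.92 to 8.76 and 8.18 to 8.54, gave most of that sum, so it says little of the other liver genes. Of these, Alb read 3.68 and 2.87 in wild type, against 5.77 and 4.41 in the knockout. The 8 brown adipocyte markers were all higher in the knockout, with a median of 0.41 and 3 at an unadjusted limma p under 0.05, where 2.89% of all genes were higher at that p. The part of skeletal muscle, liver and brown adipocytes in the differences of Fabp3, Slc27a2 and Vldlr was not tested.

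**Figure D5:**
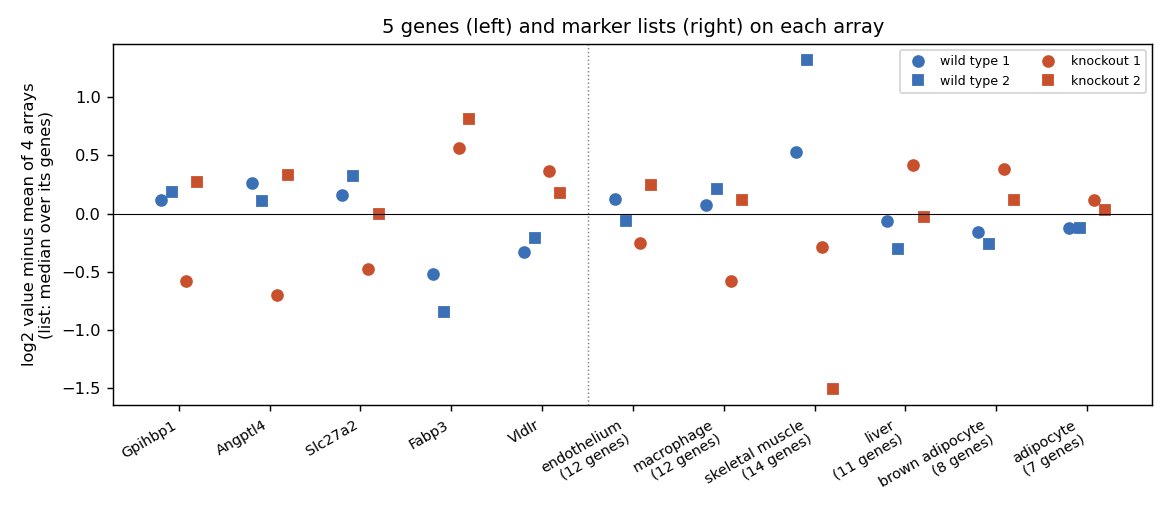
Log2 value minus the mean of the 4 arrays (vertical axis) for 5 of the genes on the left and, on the right, the median of that quantity over the genes of 6 marker lists; wild type is blue and knockout orange, circles replicate 1 and squares replicate 2. Knockout replicate 1 is lowest for Gpihbp1, Angptl4 and Slc27a2 and also for the endothelial (-0.25) and macrophage (-0.58) lists.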

How the data were processed

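Total RNA of brown adipose tissue was labelled with biotin and hybridised to whole-transcript arrays, per the labels' protocols. The authors deposited normalized log2 values, 1 column for each of the 4 samples. The submitters' processing notes list RMA, oligo and limma but no roles, and versions and genome build are not given in the sources used here. RMA gives log2 values and understates differences of dim genes. The values sit below its usual range, and the step that put them there is not given in the sources used here. Whether it shifts all genes alike was not tested, so levels, differences and folds hold for the deposited scale only.

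Of the probe sets, 23521 had 1 gene symbol in the platform annotation, 1814 several and 16010 none, and only the first were used. The brightest probe set of each gene entered limma 3.58.1 (R 4.3.3; lmFit and eBayes, genotype only, two-sided, no filter), with Benjamini-Hochberg adjustment over 22180 genes, 2 residual and 3.96 prior degrees of freedom. All probe sets, and distances between probe sets of a gene, were fitted in the same way. The scripts were tested on simulated data. The number of arrays limits the precision. Same-numbered arrays did not deviate together across all genes (r = -0.07), which does not settle whether the numbers pair samples. The main fit left the numbers out. Named are the 10 genes, up to 4 genes of each pathway list with the smallest unadjusted p under 0.05, and defining markers. Pmp2, Fabp9, Fabp12, Pparg, Ppara, Meox2, Tcf15, Slc27a3, Slc27a5 and Slc27a6 stand outside that rule and were chosen after their values were seen, as were Hp and Cyp2e1. The genes, lists and background level were chosen with earlier results of these data known.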

Additional observations from a re-analysis of the deposited data

How the results depend on the processing

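Over 15 alternatives, 148 of 150 values of the 10 genes kept their direction, and 0 passed an adjusted p under 0.05. The values that reversed were Gpihbp1 (0.12) and Angptl4 (0.15), both without knockout replicate 1. Without single arrays these genes ranged from -0.73 to 0.12 and from -0.89 to 0.15. Alternatives that changed only the variances, the array weights, the block or the set of genes fitted returned the same differences. No direction could turn there, so the count of 148 is not a measure of stability. The distance between probe sets 1 and 3 of Fabp5 changed by -0.09, and by -0.51 to 0.32 without single arrays. Of the 10 genes, 3 had an unadjusted limma p under 0.05, where 5.56% of all genes did. It was 5 with a mean trend in the variance prior (5.49% of all genes) and 2 to 6 without single arrays (4.30% to 7.31% of all genes), the 6 without knockout replicate 2, where the share over all genes was 7.31%. Over all genes tested 0 passed, with 1234 at an unadjusted limma p under 0.05. It was 1 with the replicate block and 1 with the mean trend, and 0 to 15 without single arrays, the 15 coming without wild-type replicate 1, and 2 passing when wild-type replicate 2 was left out. Whether the replicate numbers pair the samples was not settled here. With the replicate block 2 of the 10 genes had an unadjusted limma p under 0.05 (5.32% of all genes). The cause of these changes was not tested. With 1 array left in a genotype, that array is assumed to vary like those of the other. The median half-width of a 95% interval over all genes was 0.52, so smaller log2 differences are mostly not resolved here.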
